A study of Mus musculus with 4 samples.

Results

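Vascular smooth muscle cells were examined among cells from vascular fragments of the mouse cerebrum, as 659 of the 17999 cells kept from 4 single-cell RNA libraries. A cell was taken as a smooth muscle cell when it held at least 20 UMIs (unique molecular identifiers, which count captured transcripts) of *Acta2*, *Tagln* and *Myh11* together and at least 4 of the 8 genes *Acta2*, *Tagln*, *Myh11*, *Tpm2*, *Myl9*, *Pln*, *Lmod1* and *Mylk*. Cells with 500 genes or fewer, or with 10% or more mitochondrial UMIs, had been left out. The rule gave 195 (WT1), 181 (WT2), 58 (KO1) and 225 (KO2) cells. The mural cells most like them, 722 pericytes, held at least 3 of *Pdgfrb*, *Kcnj8*, *Abcc9*, *Higd1b*, *Atp13a5* and *Vtn* and under 10 UMIs of *Acta2*, *Tagln* and *Myh11*, and numbered 105, 182, 171 and 264 in the same order.

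The study compared mice that lack *Angpt2* in every cell from the germline on with wild-type littermates, on a C57BL6/J background. *Angpt2*-KO mice carried a deletion made by crossing a floxed *Angpt2* allele to *Pgk*-Cre, a deleter line active in all tissues. WT1 and WT2 were *Angpt2*-WT and KO1 and KO2 *Angpt2*-KO mice, all untreated and 3 months old, with 1 female (number 1) and 1 male (number 2) of each genotype and 1 library per mouse. Fragments had been enriched with beads against PECAM1, an endothelial protein. The kept cells held 32896366 (WT1), 42903731 (WT2), 32558112 (KO1) and 31753395 (KO2) UMIs.

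Smooth muscle cells wrap arteries, arterioles and, more sparsely, veins, and set vessel diameter. Calcium entering through voltage-gated channels or leaving the sarcoplasmic reticulum activates myosin light chain kinase, and phosphorylated myosin then pulls on smooth muscle actin. Transcription of the contractile genes depends on serum response factor and its coactivator myocardin, which act at CArG boxes. Pericytes are the mural cells of capillaries, hold little contractile protein and share the PDGFRB receptor and NOTCH3 signalling with smooth muscle. ANGPT2 is a ligand of the endothelial receptor TEK (TIE2), while ANGPT1, made by mural cells, activates that receptor.

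CArG boxes were searched for because the genes that chose the cells are textbook targets of serum response factor. In the RefSeq promoter table for GRCm38.p6, the 250 bases before the gene start held a full 10-letter match to the CArG box in 5 of 31 promoters of the contractile list (16.1%) and in 482 of all 32851 promoters (1.47%). The 5 were those of *Cnn2*, *Myl6*, *Myl9* and *Ldb3*, the last with the same box under 2 promoters, so that 4 boxes at separate positions were found, and *Myl9* had been used to choose the cells. The immediate early and heat shock list held a full match in 5 of 36 promoters (13.9%) and each other pathway list in at most 8.82%. *Tagln* and *Myh11* were not searched here. Allowing 1 G or C among the 6 middle letters, 9 of the 31 (29%) and 2823 of all (8.59%) held a match. The pattern searched for reads the same on both strands, while a single match need not. Shown are the matches of *Acta2* (smooth muscle actin) and *Myl9* (regulatory myosin light chain), both used to choose the cells, and of *Cnn2* (a calponin) and *Myl6* (essential myosin light chain), which were not, each with 10 bases on either side, 5′ to 3′ along the gene and with the match in capitals.
Acta2, chr19:34255438-34255467, minus strand, 84 bases before the gene start, 1 letter off: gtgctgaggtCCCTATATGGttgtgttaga
Acta2, chr19:34255388-34255417, minus strand, 34 bases before the gene start, 1 letter off: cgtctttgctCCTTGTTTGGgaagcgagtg
Myl9, chr2:156775293-156775322, plus strand, 161 bases before the gene start, full match: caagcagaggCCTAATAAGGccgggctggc
Myl9, chr2:156775355-156775384, plus strand, 99 bases before the gene start, 1 letter off: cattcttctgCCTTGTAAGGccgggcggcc
Cnn2, chr10:79988534-79988563, plus strand, 56 bases before the gene start, full match: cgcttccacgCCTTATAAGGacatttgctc
Myl6, chr10:128493040-128493069, minus strand, 50 bases before the gene start, full match: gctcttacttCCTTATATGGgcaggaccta
A match is a run of letters and was not tested as a binding site. The windows were those of RefSeq, and other annotations place some gene starts elsewhere.

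The cells were chosen by their UMIs of the contractile genes, so these genes are given first, as a description. In CPM (UMIs of a gene scaled to a common total of 1000000 UMIs), taken over the summed cells of a class in 1 mouse, *Acta2* was 7702 (WT1), 9795 (WT2), 5765 (KO1) and 5217 (KO2) over all smooth muscle cells. The median cell held 201 (WT1), 196 (WT2), 231.5 (KO1) and 123 (KO2) UMIs of *Acta2*, *Tagln* and *Myh11*. All 8 genes were found in 168 of 195, 151 of 181, 42 of 58 and 156 of 225 cells. The lower median of KO2 came with many cells just inside the threshold. Cells with 20 to 29 UMIs numbered 6 (WT1), 9 (WT2), 5 (KO1) and 40 (KO2), of which 4, 9, 5 and 38 held 3 or more pericyte genes. Endothelial markers, as defined below, were found in 3, 1, 1 and 30 of them. Their median UMI totals were 5896, 5602, 8486 and 16616. Just outside it, cells with 10 to 19 UMIs and at least 4 of the 8 genes numbered 31, 27, 12 and 86. Of these, 16, 21, 12 and 76 held 3 or more pericyte genes and 23, 15, 5 and 73 held endothelial markers.

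Transcripts of other cells were part of many of these profiles. Endothelial markers, taken as at least 4 of *Pecam1*, *Cdh5*, *Cldn5*, *Flt1*, *Tie1*, *Tek* and *Kdr* with 10 or more UMIs together, were found in 49 of 195 smooth muscle cells of WT1, 57 of 181 of WT2, 18 of 58 of KO1 and 88 of 225 of KO2. These cells were deep, with median UMI counts of 21092, 17316, 34288.5 and 16461.5, against 7694.5, 6609, 10328.5 and 5753 in smooth muscle cells without endothelial markers. The same markers were found in 55 of 105, 93 of 182, 103 of 171 and 180 of 264 pericytes. Fragments that were not fully dissociated, doublets and free RNA were not told apart, and no doublet caller was run. Levels below are therefore given for the 447 smooth muscle cells without endothelial markers (146, 124, 40 and 137), beside counts of calls for all 659. In these 447 cells, the 12 endothelial markers listed summed to 389, 427, 354 and 454 CPM, with *Esam* the most abundant, against 6697, 7569, 9325 and 10694 CPM over all smooth muscle cells. No cell barcode of a smooth muscle cell was that of another smooth muscle cell, and 3 were found in another library.

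**Figure D1:**
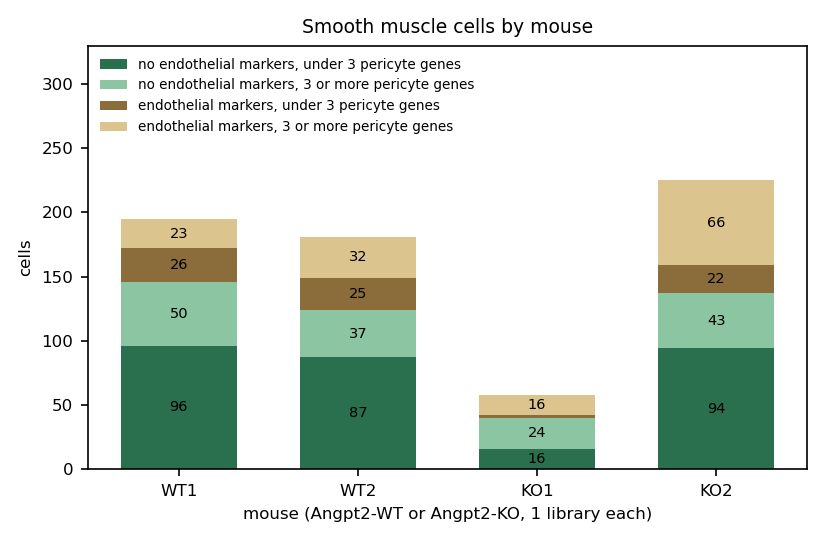
Number of smooth muscle cells in each of the 4 mice, split by endothelial markers and by whether 3 or more of the 6 pericyte genes were detected. KO1 had 58 cells, 16 of them with neither; KO2 had 225, of which 66 carried both.

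The share of smooth muscle cells did not separate the genotypes. Smooth muscle cells made up 4.82% of the kept cells in WT1 (exact 95% binomial interval 4.18 to 5.53), 3.15% in WT2 (2.72 to 3.64), 2.00% in KO1 (1.52 to 2.58) and 4.23% in KO2 (3.71 to 4.81). The mean was 3.99% ± 1.18 (SD, n = 2) in *Angpt2*-WT and 3.12% ± 1.58 (SD, n = 2) in *Angpt2*-KO mice (p = 0.667 by exact permutation of the mice, two-sided), and without KO1 the difference changed sign. Among smooth muscle cells plus pericytes, smooth muscle cells were 65%, 49.9%, 25.3% and 46.0%. Both KO values lay below both WT values, a mean change of -21.8 points (p = 0.33 by exact permutation of the mice, two-sided, the lowest value open to 2 against 2 mice). This order did not hold without endothelial-marker cells, where the values were 74.5% (WT1), 58.2% (WT2), 37.0% (KO1) and 62.0% (KO2), nor at a minimum of 10 UMIs, where KO2 (54.1%) lay above WT2 (53.3%), each with p = 0.667 by the same exact permutation. The intervals cover counting error only, and the yield of each cell type in a fragment preparation cannot be told apart from its number in the tissue.

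Against pericytes of the same mice, 20 of 25 tested genes of the contractile list, the ryanodine receptor *Ryr2*, the potassium channel *Kcnma1* and 2 subunits of the phosphatase that relaxes myosin were higher in smooth muscle cells. The laminin chains *Lama2*, *Lama4* and *Lamb1* and 4 of 7 tested vasoactive receptors were lower. So were 7 of 7 tested endothelial markers (median log2 difference -1.35), even without the cells that met the endothelial rule. The 12 markers summed to 635 (WT1), 1029.8 (WT2), 1021 (KO1) and 1076 (KO2) CPM in these pericytes, above the 354 to 454 CPM of smooth muscle cells, with *Esam* or *Flt1* the most abundant and *Cdh5* at 0 in WT2 and *Tek* in KO2. Their part in the genes that were lower was not tested. With all cells, edgeR's quasi-likelihood test with the mouse as a term called 2718 of 10786 genes at an adjusted p (Benjamini-Hochberg) under 0.05, 25.2%, of which 1415 were higher and 1303 lower in smooth muscle cells. Without endothelial-marker cells it called 1956 of 5767 genes, 33.9%, with 1001 higher and 955 lower. Without TMM scaling these splits were 1171 and 1823 with all cells and 769 and 1303 without endothelial-marker cells, and the median difference was then -0.12 and -0.19. The 14 genes by which these cells and pericytes were chosen were not counted. Genes that go along with them are not independent of the choice, so these calls describe how far the 2 classes differ. The differences below are log2 differences between smooth muscle cells and pericytes without endothelial markers, with adjusted p-values of that edgeR test.

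Of the 16 smooth muscle markers listed outside the gate, 14 were higher, 1 was lower and 1 did not pass. All 10 pericyte markers outside the gate were lower, whereas with endothelial-marker cells included 6 were lower and 2 higher. *Cnn1* (calponin, an actin-binding protein that inhibits myosin ATPase; chr9:22099216-22109630, plus strand, GRCm38) was 336 (WT1), 365 (WT2), 279 (KO1) and 373 (KO2) CPM and had no UMI in the pericytes of any mouse. Set against 3 counts over all these pericytes, the floor used here for a count of 0, *Cnn1* was at least 113-fold higher. Its values in the 4 mice overlapped between the genotypes. Like *Cnn1*, the other 9 genes with the largest fitted rise, *Fbxl22*, *Ramp1*, *Sh3bgr*, *Ptgis*, *Ntrk3*, *Susd5*, *Lrrc10b*, *BC051019* and *Kcnma1*, had no UMI in these pericytes. *Fbxl22*, an F-box protein of the sarcomere Z-disc in muscle, was at least 90.8-fold higher and *Ptgis*, prostacyclin synthase, at least 53-fold higher. The 2 exceptions among the smooth muscle markers were *Casq2*, a calcium store protein, which was lower (log2 difference -1.73 ± 0.21 (SE), adjusted p = 8.04e-08), and *Cald1* (caldesmon), which did not pass (log2 difference 0.14 ± 0.12 (SE), adjusted p = 0.438). With all cells 15 of the 16 markers were higher and 0 lower. *Cald1* was then higher (log2 difference 1.06 ± 0.12) and *Casq2* did not pass (0.24 ± 0.12).

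**Figure D2:**
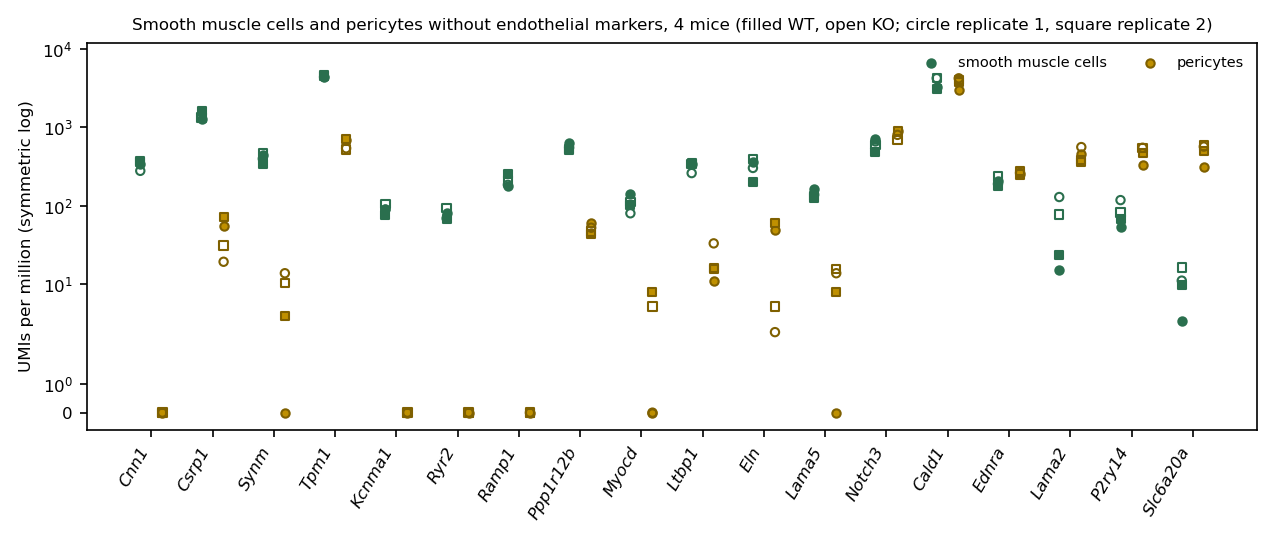
CPM (symmetric log axis) of 18 genes in smooth muscle cells and pericytes without endothelial markers, 1 point per mouse and class. *Cnn1*, *Kcnma1*, *Ryr2* and *Ramp1* lie at 0 in the pericytes of all 4 mice; *Notch3*, *Cald1* and *Ednra* did not pass here and were called higher in smooth muscle cells with all cells.

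Of the 33 genes of the contractile list, 25 outside the gate were tested, of which 20 were higher, 2 lower and 3 did not pass (median log2 difference 2.87, against -0.01 over all genes tested). *Csrp1*, a LIM protein of actin bundles, was 1272 (WT1), 1593 (WT2), 1349 (KO1) and 1333 (KO2) CPM in smooth muscle cells and 54.8 (WT1), 71.6 (WT2), 19.4 (KO1) and 31.3 (KO2) in pericytes (log2 difference 5.21 ± 0.21 (SE), adjusted p = 2.31e-17). Every smooth muscle value lay above every pericyte value. *Tpm1* (tropomyosin; log2 difference 3.02 ± 0.14 (SE), adjusted p = 3.45e-16), *Synm* (synemin, an intermediate filament protein; log2 difference 5.77 ± 0.31 (SE), adjusted p = 7.46e-15) and *Myl6* (log2 difference 2.74 ± 0.14 (SE), adjusted p = 4.82e-15) were also higher. *Des* (desmin) was 722 ± 54.1 CPM in smooth muscle cells and 248 ± 30.2 in pericytes (SD, n = 4 mice; log2 difference 1.7 ± 0.15 (SE), adjusted p = 3.08e-10). The 2 lower genes were the non-muscle forms *Myh9* (non-muscle myosin; log2 difference -1.71 ± 0.17 (SE), adjusted p = 1.40e-09) and *Tpm4* (log2 difference -0.74 ± 0.16 (SE), adjusted p = 3.01e-04).

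The calcium and ion channel genes divided between the 2 mural classes, with 10 of 23 tested higher, 5 lower and 8 that did not pass (median log2 difference 0.25). *Ryr2*, the ryanodine receptor of the sarcoplasmic reticulum, had no UMI in pericytes and was at least 26-fold higher. *Kcnma1*, the pore of the large-conductance calcium-activated potassium channel, was at least 30-fold higher, while its beta subunit *Kcnmb1* was found in both classes (log2 difference 1.45 ± 0.22 (SE), adjusted p = 4.35e-06). *Atp2a2*, the calcium pump of the reticulum, was 1068 ± 136 CPM against 305 ± 39.5 CPM (SD, n = 4 mice; log2 difference 1.96 ± 0.15 (SE), adjusted p = 7.49e-12). *Itpr2*, an inositol trisphosphate receptor, was among the genes lower in smooth muscle cells (log2 difference -3.28 ± 0.24 (SE), adjusted p = 7.62e-12). The L-type calcium channel *Cacna1c* was 122 ± 17.4 CPM in smooth muscle cells and 125 ± 13.6 CPM in pericytes, a difference that did not pass (log2 difference 0.11 ± 0.19, SE). With all cells 16 of 25 genes of this list were higher, *Cacna1c* among them (1.54 ± 0.11), and 5 lower.

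Few vasoactive receptors were abundant enough to be tested, 7 of 29 listed, of which 2 were higher and 4 lower. *Ramp1*, the subunit that makes the receptor for calcitonin gene-related peptide, was 178 (WT1), 257 (WT2), 185 (KO1) and 212 (KO2) CPM and had no UMI in pericytes, at least 68-fold higher. *Npy1r*, a neuropeptide Y receptor, was 311 ± 45.5 CPM against 66.3 ± 19.8 CPM (SD, n = 4 mice; log2 difference 2.36 ± 0.21 (SE), adjusted p = 1.76e-10). *P2ry14*, *Pth1r*, *Tbxa2r* and *Adora2a* were lower, with log2 differences from -2.62 (*Pth1r*, the parathyroid hormone receptor) to -2.09 (*Adora2a*, an adenosine receptor). The endothelin receptor *Ednra* did not pass (log2 difference -0.22 ± 0.16, SE) and with all cells was higher (log2 difference 1.14 ± 0.11 (SE), adjusted p = 6.71e-05). With all cells 6 of 20 vasoactive receptors were higher and 9 lower. In the tone signalling list, 13 of 25 were higher, 5 lower and 7 did not pass (median 0.54). The myosin phosphatase subunits *Ppp1r12b* (log2 difference 3.59 ± 0.19 (SE), adjusted p = 1.01e-14) and *Ppp1r12a* (log2 difference 2.43 ± 0.15 (SE), adjusted p = 2.57e-13) were higher, as were *Ppp1r14a* (CPI-17, the inhibitor of that phosphatase; log2 difference 1.31 ± 0.14), *Rock1* (1.73 ± 0.14) and the phosphodiesterase *Pde3a* (1.97 ± 0.16). *Rgs5*, a brake on G-protein signalling and a pericyte marker, was 3126 (WT1), 2176 (WT2), 7396 (KO1) and 3327 (KO2) CPM in smooth muscle cells and 10748 (WT1), 9177 (WT2), 11211 (KO1) and 10202 (KO2) CPM in pericytes, lower in all 4 mice (log2 difference -1.37 ± 0.16 (SE), adjusted p = 3.55e-08), and did not pass with all cells (-0.09 ± 0.12).

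Among transcription factors, 8 of 22 tested were higher and 3 lower. *Myocd* (myocardin) was 139.7 (WT1), 102 (WT2), 80.2 (KO1) and 113 (KO2) CPM in smooth muscle cells and 0 (WT1), 7.95 (WT2), 0 (KO1) and 5.22 (KO2) in pericytes (log2 difference 5.12 ± 0.44 (SE), adjusted p = 1.47e-10), where the values rest on very few UMIs. *Klf2* (3.09 ± 0.19) and *Klf4* (2.5 ± 0.28), flow-sensitive and stress-sensitive zinc finger factors, were higher, and neither passed with all cells (-0.06 ± 0.15 and 0.08 ± 0.13). *Foxf2*, a factor of brain pericytes, was lower (-1.26 ± 0.26). In the Notch list 7 of 12 were higher and 2 lower. *Notch3* itself was 614 ± 100 CPM in smooth muscle cells and 817 ± 95.3 CPM in pericytes (SD, n = 4 mice; log2 difference -0.26 ± 0.14 (SE), adjusted p = 0.153) and did not pass, while with all cells it was higher (log2 difference 1.00 ± 0.10 (SE), adjusted p = 8.66e-05). Its targets *Hey2* (0.89 ± 0.19) and *Nrip2* (4.63 ± 0.32) and the ligand *Jag1* (0.57 ± 0.17) were higher, *Notch1* was lower (-1.24 ± 0.17), close to the median of the endothelial markers (-1.35), and *Heyl* did not pass (-0.06 ± 0.17). With all cells *Notch1* did not pass (-0.21 ± 0.09) and *Heyl* was higher (0.99 ± 0.18). In the TGF-beta and BMP list 12 of 28 were higher and 7 lower, and with all cells 6 of 35 were higher and 9 lower. *Ltbp1*, which tethers latent TGF-beta to the matrix, was 4.07 ± 0.27 higher on the log2 scale and *Tgfb3*, a ligand, 2.66 ± 0.24 higher. *Inhba* (activin A) was at least 15.9-fold higher, with no UMI in pericytes.

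**Figure D3:**
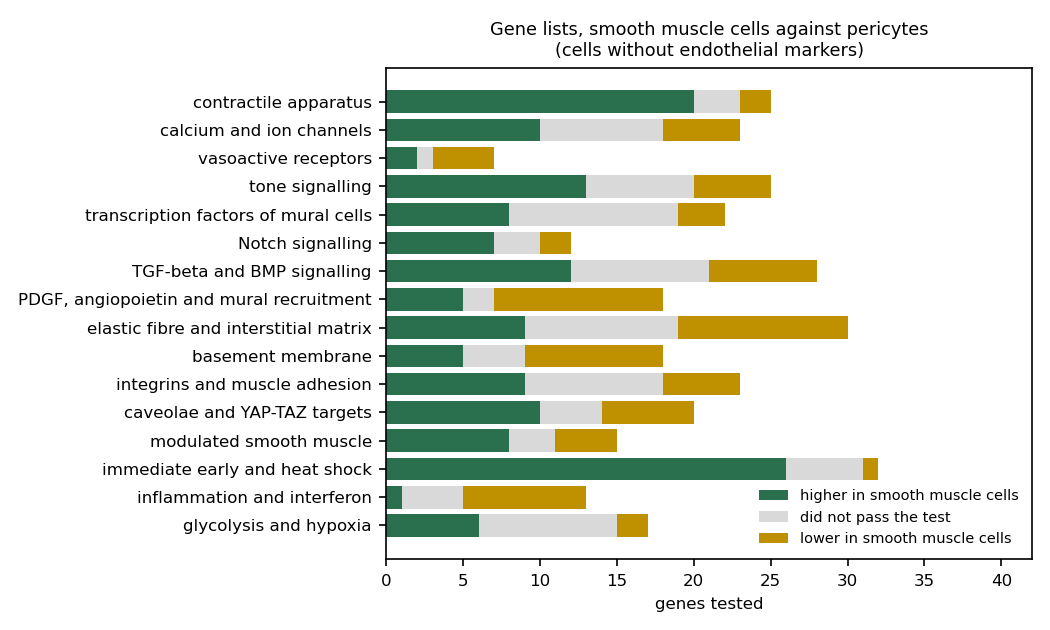
Number of genes of each of 16 lists that were higher, did not pass the test or were lower in smooth muscle cells than in pericytes, without endothelial-marker cells. The contractile list had 20 of 25 higher and the immediate early list 26 of 32, while 11 of 18 genes of the PDGF and angiopoietin list were lower.

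In the elastic fibre and interstitial matrix list 9 of 30 were higher and 11 lower, and in the basement membrane list 5 of 18 were higher and 9 lower (medians -0.41 and -0.57). The first count turned with endothelial-marker cells included, to 22 of 40 higher and 5 lower, and the second was then 7 of 23 higher and 9 lower. *Eln*, elastin of the arterial wall, was 364 (WT1), 203 (WT2), 303 (KO1) and 392 (KO2) CPM in smooth muscle cells and 49.3 (WT1), 59.6 (WT2), 2.77 (KO1) and 5.22 (KO2) CPM in pericytes (log2 difference 3.63 ± 0.35 (SE), adjusted p = 9.75e-10). *Lama5* (log2 difference 3.92 ± 0.34 (SE), adjusted p = 1.31e-10) was the laminin alpha chain that was higher. *Lama2* (log2 difference -2.96 ± 0.27 (SE), adjusted p = 3.82e-10) and *Lama4* (log2 difference -1.98 ± 0.20 (SE), adjusted p = 2.75e-09) were lower, together with *Lamb1* (-2.86 ± 0.26), *Nid1* (nidogen; -1.62 ± 0.15) and *Lamc3* (-2.03 ± 0.20), of which *Lamc3* did not pass with all cells (-0.47 ± 0.19). *Col4a1* and *Col4a2*, the main basement membrane collagens, did not pass (-0.31 ± 0.14 and -0.21 ± 0.15). In the list of PDGF, angiopoietin and mural recruitment genes, 5 of 18 were higher and 11 lower, and with all cells 10 of 33 were higher and 12 lower. *Igf2* (-4.35 ± 0.31), *Anpep* (CD13; -3.37 ± 0.31) and *Cxcl12* (-2.54 ± 0.20) were lower. *Angpt1* did not pass (0.58 ± 0.29) and was higher with all cells (log2 difference 2.39 ± 0.31 (SE), adjusted p = 3.96e-04).

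Caveolae, membrane pits typical of smooth muscle, were represented by *Cav1* (2.82 ± 0.26), *Cavin1* (2.4 ± 0.16) and *Cavin3* (3.08 ± 0.22), all higher. Of 20 tested genes of their list, 10 were higher and 6 lower, and with all cells 11 of 22 were higher and 0 lower, with *Cav1* not passing (0.09 ± 0.09). Of the immediate early and heat shock list, 26 of 32 were higher and 1 lower (median 1.30), for example *Fos* at 4403 ± 487 CPM against 556 ± 225 CPM (SD, n = 4 mice; log2 difference 3.19 ± 0.17 (SE), adjusted p = 6.43e-15). Smooth muscle cells were also deeper than pericytes (the pericytes without endothelial markers had median UMI counts of 2883, 2580, 4120.5 and 1883) and had a higher mitochondrial share (medians of 7.09%, 6.24%, 5.02% and 5.28% against 5.90%, 4.75%, 3.93% and 4.68%). With every cell thinned to 2000 UMIs, *Fos* (log2 difference 2.9), *Cav1* (2.74), *Cavin1* (2.21) and *Cavin3* (2.87) kept their calls. The part of the preparation was not tested. In that fit 913 of 2200 genes were called. With all cells, 20 of 26 contractile genes were higher and 3 lower, 16 of 28 tone signalling genes were higher and 2 lower, 16 of 27 transcription factors were higher and 3 lower, 11 of 21 Notch genes were higher and 2 lower, and 18 of 33 immediate early and heat shock genes were higher and 2 lower. The 10 largest falls were in *Gm30075*, *Slc6a13*, *Ggt1*, *Dcdc2a*, *Cthrc1*, *Slc6a20a*, *Gm36823*, *St8sia4*, *Grm3* and *Apod*. *Slc6a20a*, a proline transporter, was 3.37 (WT1), 9.83 (WT2), 11.1 (KO1) and 16.5 (KO2) CPM in smooth muscle cells and 312 (WT1), 493 (WT2), 567 (KO1) and 585 (KO2) CPM in pericytes (log2 difference -5.45 ± 0.23 (SE), adjusted p = 3.00e-17). The GABA transporter *Slc6a13* gave -6.84 ± 0.59 and *Ggt1*, a gamma-glutamyltransferase, -5.89 ± 0.37.

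Between the genotypes, the targeted gene was followed first. *Angpt2* (chr8:18690263-18741562, minus strand, GRCm38) was 87.5 (WT1), 62.6 (WT2), 22.3 (KO1) and 11.8 (KO2) CPM in smooth muscle cells without endothelial markers, on 104, 51, 10 and 10 UMIs. Both KO values lay below both WT values (log2 difference -2.4 ± 0.35 (SE), adjusted p = 6.22e-09). In pericytes without endothelial markers it was 214 (WT1), 131 (WT2), 16.6 (KO1) and 10.4 (KO2) CPM (log2 difference -3.56 ± 0.47 (SE), adjusted p = 0.00619), and the difference between these effects did not pass (1.44 ± 0.66, adjusted p = 0.547). With all cells the effects did differ (difference -1.99 ± 0.32, adjusted p = 0.00529), at -1.37 in smooth muscle cells and 0.78 in pericytes. In endothelial cells, cells with those markers, under 3 pericyte genes and under 10 UMIs of *Acta2*, *Tagln* and *Myh11*, the order was the opposite, with 12.7 (WT1), 12.2 (WT2), 59.6 (KO1) and 39.3 (KO2) CPM. The deletion removes an exon, and 3′ UMIs outside it do not check the genotype. Whether reads were assigned by strand is not stated, and *Mcph1* overlaps the gene on the other strand. Over all smooth muscle cells, endothelial-marker cells included, *Angpt2* did not pass (log2 difference -1.37 ± 0.28 (SE), adjusted p = 0.055). The receptors *Tek* and *Tie1*, at 313 to 448 and 285 to 311 CPM in endothelial cells, had at most 8 UMIs in these smooth muscle cells of a mouse and were not tested there. *Angpt1* was 92.6 (WT1), 78.6 (WT2), 86.9 (KO1) and 125 (KO2) CPM and did not pass (log2 difference 0.21 ± 0.24, SE).

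Few genes separated the genotypes in smooth muscle cells, and of those called most were higher in *Angpt2*-KO mice. With all cells, edgeR called 56 of 10637 genes (0.526%), 51 higher (0.479%) and 5 lower (0.047%). Without endothelial-marker cells it called 79 of 7861 genes (1%), 72 higher (0.916%) and 7 lower (0.089%), of which 21 were called the same way with all cells. The mice of the 2 genotypes did not overlap for 37.1% of the genes tested without endothelial-marker cells. Among the genes called only over all cells, *Apln* (5.86 ± 0.50), *Esm1* (4.94 ± 0.48) and *Prnd* (5.96 ± 0.88), known from endothelial tip cells, had no more than 6 UMIs in any mouse without endothelial-marker cells. In endothelial cells *Apln* was 3.97 (WT1), 5.33 (WT2), 358 (KO1) and 100 (KO2) CPM. Cells that the labels place in 1 mouse share its library, so sums per mouse were compared. Without endothelial-marker cells edgeR set each gene's spread wholly to the trend over all genes, so its own spread did not enter its p-value. The same held there for the later test of whether the effect differed from that in pericytes. With all cells a gene's own spread between mice entered in part.

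Few contractile genes passed the test between the genotypes. Of 25 tested outside the gate, 1 passed, the non-muscle *Tpm4* (higher; log2 difference 0.89 ± 0.24 (SE), adjusted p = 0.0182), which lost its call with any 1 mouse left out, and the median log2 difference was -0.12. With all cells 0 of 26 passed by edgeR, 16 had an unadjusted p under 0.05 (1427 of all 10637 genes tested did) and DESeq2 called 5, with a median of -0.43. *Cnn1* gave a log2 difference of -0.22 ± 0.23 (SE) and *Des* of -0.23 ± 0.23, neither of which passed. The genes that chose the cells are given as values. *Acta2* was 11600.4 (WT1), 16276 (WT2), 10612 (KO1) and 11629 (KO2) CPM, *Tagln* 10826 (WT1), 13909.5 (WT2), 9270.4 (KO1) and 9917 (KO2) CPM, and *Myh11* 6146 (WT1), 4809.7 (WT2), 5389.7 (KO1) and 5602 (KO2) CPM. For *Acta2*, WT1 lay between the KO values. For *Tagln*, both KO values lay below both WT values. Without endothelial-marker cells edgeR and DESeq2 called 0 genes of several other lists. At an unadjusted p under 0.05, which 591 of all 7861 genes tested had, these held 4 of 13 vasoactive receptors, 1 of 25 transcription factors, 1 of 14 Notch genes, 3 of 34 TGF-beta and BMP genes, 2 of 27 integrin and adhesion genes, 1 of 33 immediate early and heat shock genes and 2 of 19 glycolysis genes. With all cells edgeR called 1 gene of these lists, in the TGF-beta and BMP list. DESeq2 then called 2 TGF-beta and BMP genes and 1 each of the Notch, integrin and glycolysis lists. By edgeR an unadjusted p under 0.05 was then found for 5 of 23 vasoactive receptors, 6 of 28 transcription factors and 5 of 21 Notch genes. It was found for 10 of 35 TGF-beta and BMP, 10 of 31 integrin, 6 of 33 immediate early and 5 of 24 glycolysis genes.

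The genes that were higher in *Angpt2*-KO smooth muscle cells held many of the extracellular matrix. Of 31 tested genes of the elastic fibre and interstitial matrix list 10 rose and 0 fell, and of 17 of the basement membrane list 5 rose and 0 fell (median log2 differences 0.59 and 0.54, against -0.01 over all genes tested). With all cells 4 of 39 and 5 of 23 rose and 0 fell in either. *Col4a1*, *Col4a2*, *Col5a2*, *Col1a1*, *Col6a1*, *Fn1*, *Sparc* and *Mmp14* did not pass there, with log2 differences from 0.81 (*Fn1*) to 2.75 (*Col1a1*) and adjusted p-values from 0.0527 (*Col5a2*) to 0.284 (*Col6a1*). The all-cell matrix and basement membrane calls were lost when thinned to 2000 UMIs (0 of 40) and without cells with 5 or more pericyte genes (0 of 53, median 0.19). The all-cell median was 0.48, and 0.56 without WT1 and 0.37 without WT2. *Lama2* (laminin alpha-2; chr10:26980036-27619758, minus strand, GRCm38) was 15.1 (WT1), 23.3 (WT2), 129 (KO1) and 77.6 (KO2) CPM (log2 difference 2.27 ± 0.31 (SE), adjusted p = 3.07e-10), and both KO values lay above both WT values. *Lamb1* was 5.89 (WT1), 7.37 (WT2), 66.9 (KO1) and 37.6 (KO2) CPM (log2 difference 2.77 ± 0.44 (SE), adjusted p = 3.07e-07). *Col4a1* was 641 (WT1), 547 (WT2), 1973 (KO1) and 1082 (KO2) CPM (log2 difference 1.22 ± 0.23 (SE), adjusted p = 4.49e-05) and its partner chain *Col4a2* 415 (WT1), 392 (WT2), 1019 (KO1) and 733 (KO2) CPM (log2 difference 0.98 ± 0.23 (SE), adjusted p = 0.0047). Among fibrillar collagens, *Col3a1* was 120.3 (WT1), 200.2 (WT2), 345 (KO1) and 593 (KO2) CPM (log2 difference 1.45 ± 0.24 (SE), adjusted p = 5.02e-07), *Col5a2* 23.6 (WT1), 17.2 (WT2), 95.8 (KO1) and 63.5 (KO2) CPM (log2 difference 1.75 ± 0.32 (SE), adjusted p = 1.56e-05) and *Col5a3* 5.89 (WT1), 4.91 (WT2), 75.8 (KO1) and 32.9 (KO2) CPM (log2 difference 3.04 ± 0.46 (SE), adjusted p = 2.98e-08). For each of these genes the genotypes did not overlap. Of the matrix and basement membrane genes, 6 were called without WT1, 2 without WT2, 10 without KO1 and 9 without KO2, and 0 of 38 with every cell thinned to 2000 UMIs. *Nid1*, *Col6a1*, *Col6a2*, *Fn1* (fibronectin), *Sparc*, *Loxl2* (a collagen cross-linking oxidase) and *Mmp14* (a membrane-bound matrix protease) rose too, by 0.86 (*Sparc*) to 2.18 (*Loxl2*). *Col4a2*, *Nid1* and *Sparc* lost their calls with any 1 mouse left out. *Col1a1* was high in KO2 only, with 5.05 (WT1), 12.3 (WT2), 6.69 (KO1) and 78.7 (KO2) CPM. Single cells weighed heavily here. In KO1 1 cell gave 35.9% of the *Col4a1* UMIs and in KO2 1 cell gave 78.1% of those of *Lamb1*.

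Pericyte genes rose in the same fit. The 6 pericyte genes of the gate summed to 1179.9 (WT1), 1306 (WT2), 3214 (KO1) and 1958 (KO2) CPM, and 4 of the 6 passed. *Abcc9*, the sulfonylurea receptor subunit of the potassium channel of pericytes, was 9.26 (WT1), 16 (WT2), 114 (KO1) and 91.7 (KO2) CPM (log2 difference 2.92 ± 0.33 (SE), adjusted p = 4.45e-15). *Kcnj8*, the pore of that channel (log2 difference 1.4 ± 0.31 (SE), adjusted p = 0.00172), *Vtn* (vitronectin; log2 difference 1.36 ± 0.23 (SE), adjusted p = 2.29e-06) and *Atp13a5* (log2 difference 1.5 ± 0.38 (SE), adjusted p = 0.0125) were also higher. *Pdgfrb* was 455 (WT1), 352 (WT2), 515 (KO1) and 492 (KO2) CPM and did not pass (log2 difference 0.18 ± 0.23 (SE), adjusted p = 0.94). Of the 8 tested pericyte markers outside the gate, 1 passed, *Rgs5* (log2 difference 0.87 ± 0.23 (SE), adjusted p = 0.0155). *Abcc9* kept its call in each of the 4 fits without 1 mouse, *Kcnj8* in 2 and *Vtn*, *Atp13a5* and *Rgs5* in 1. With all cells 3 of the 6 gate genes passed and 0 of the 10 markers outside the gate, none of which had an unadjusted p under 0.05 and none of which DESeq2 called. With all cells DESeq2 called 3 gate genes, *Abcc9*, *Kcnj8* and *Vtn*. By edgeR 0 of 6 then passed when thinned to 2000 UMIs, and 0 of 5 without cells with 5 or more pericyte genes. The median log2 difference of the gate genes was 1.10 with all cells. With 1 mouse left out it was from 0.77 (without KO1) to 1.38 (without KO2). Without endothelial-marker cells DESeq2 called 1 of the 6 gate genes, *Abcc9*, and by edgeR 0 of 4 passed with every cell thinned to 2000 UMIs. In 1 cell of KO1 lay 78.4% of its *Abcc9* UMIs.

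The share of smooth muscle cells that held 3 or more of the 6 pericyte genes was compared at equal depth, since a deep cell shows more genes. With every cell thinned to 2000 UMIs, 4 cells each of WT2 and KO2 were left out as shallower. The share was then 12.3% in WT1 (exact 95% binomial interval 8.05 to 17.8), 13.6% in WT2 (8.88 to 19.5), 24.1% in KO1 (13.9 to 37.2) and 19.0% in KO2 (14.1 to 24.8). Both KO shares lay above both WT shares (a mean change of 8.64 points, again p = 0.33 by exact permutation). The genotypes had the same order for *Vtn* in endothelial cells, not thinned, of which 2.92% (WT1), 3.31% (WT2), 5.35% (KO1) and 4.11% (KO2) held it. Such a background was not taken off the shares. Unthinned, 73 of 195, 69 of 181, 40 of 58 and 109 of 225 cells held 3 or more. The UMIs that chose the cells are given for both sets as a description. Without endothelial markers, the median of *Acta2*, *Tagln* and *Myh11* UMIs was 237, 251, 331 and 186 in cells with under 3 pericyte genes and 172, 141, 168.5 and 81 in cells with 3 or more, at like median UMI totals (7756, 6653, 9706 and 5694.5 against 7505, 6560, 10328.5 and 6272).

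**Figure D4:**
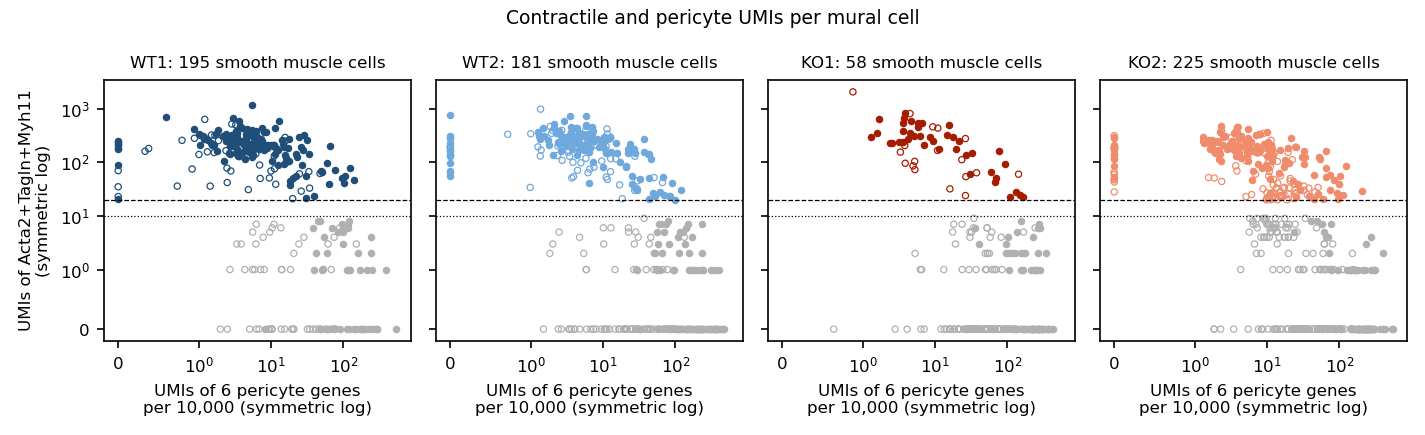
Each point is a mural cell, with UMIs of 6 pericyte genes per 10000 UMIs on the x axis and UMIs of *Acta2*, *Tagln* and *Myh11* on the y axis (symmetric log axes), smooth muscle cells in colour and pericytes in grey, open where endothelial markers were present. The dashed line marks 20 and the dotted line 10 UMIs. KO2 has 40 cells with 20 to 29 UMIs, against 5 to 9 in the other mice, and 30 of the 40 held endothelial markers.

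The matrix difference between the genotypes was then read in these cells split by pericyte genes and without endothelial markers. In the cells with under 3 pericyte genes (96, 87, 16 and 94), *Lama2* was 5.02 (WT1), 6.89 (WT2), 5.86 (KO1) and 7.17 (KO2) CPM, and the genotypes overlapped. In those with 3 or more (50, 37, 24 and 43), it was 35.8 (WT1), 64.2 (WT2), 205 (KO1) and 212 (KO2) CPM, and they did not. *Nid1* was 97.9 (WT1), 74.1 (WT2), 82 (KO1) and 96.8 (KO2) CPM in the first and 158 (WT1), 197 (WT2), 371 (KO1) and 461 (KO2) CPM in the second. *Col5a2* was 20.1 (WT1), 15.5 (WT2), 17.6 (KO1) and 23.3 (KO2) CPM in the first and 30.7 (WT1), 21.4 (WT2), 144 (KO1) and 139.9 (KO2) CPM in the second. For *Nid1* and *Col5a2* the genotypes overlapped in the first set only. So they did for *Sparc*, with 724 (WT1), 541 (WT2), 961 (KO1) and 686 (KO2) CPM and 1076 (WT1), 2094 (WT2), 2429 (KO1) and 3826 (KO2) CPM. *Col4a1*, like *Col4a2*, *Col3a1* and *Col5a3*, was higher in both KO mice in either set. Its values were 649.9 (WT1), 462 (WT2), 896 (KO1) and 688 (KO2) CPM in the first and 624 (WT1), 758 (WT2), 2634 (KO1) and 1833 (KO2) CPM in the second. With the cells of 3 or more pericyte genes left out, edgeR called 15 of 6546 genes, and of 39 matrix and basement membrane genes tested 0 passed, with a median log2 difference of 0.12. In this fit *Col4a1* gave 0.38 and *Nid1* -0.02 on the log2 scale. *Angpt2* stayed lower, at 87.8 (WT1), 34.4 (WT2), 5.86 (KO1) and 5.38 (KO2) CPM (log2 difference -3.57, adjusted p = 8.35e-05). Fewer UMIs were left in this fit, with 16 cells in KO1. With all cells without endothelial markers, DESeq2 called 6 of 48 matrix and basement membrane genes. The split used the pericyte genes, so their own values in the 2 sets are no result. *Lama2*, *Lamb1* and *Nid1* were higher in pericytes and go along with these genes, so they are not independent of the split. The loss of the matrix calls therefore does not show which cells carried the difference between the genotypes.

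**Figure D5:**
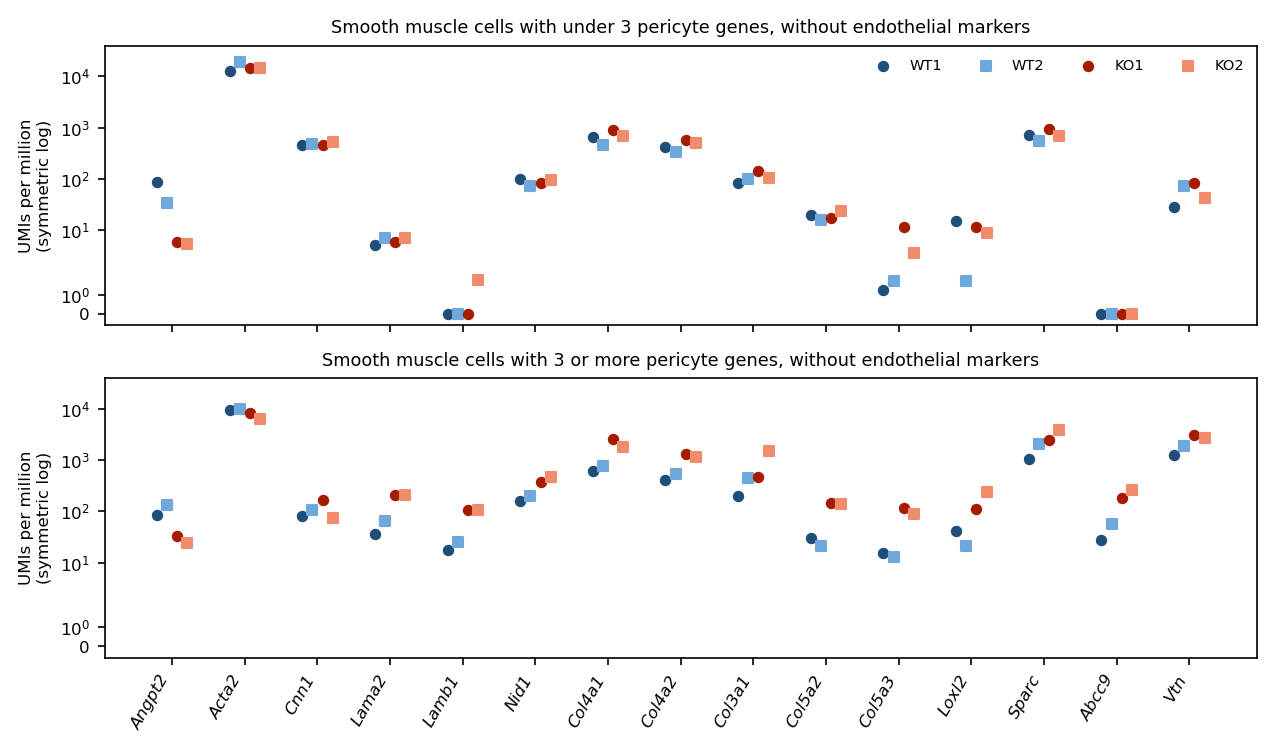
CPM (symmetric log axis) of 15 genes by mouse in smooth muscle cells without endothelial markers, with under 3 pericyte genes (top) and with 3 or more (bottom). *Angpt2* is lower in both KO mice in both panels, while *Lama2*, *Nid1* and *Col5a2* separate the genotypes in the bottom panel.

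Of the 7 genes that fell, among them *Angpt2*, *Ccn2* (a matricellular target of YAP and TGF-beta) was 299 (WT1), 361 (WT2), 152 (KO1) and 204 (KO2) CPM (log2 difference -0.99 ± 0.24 (SE), adjusted p = 0.00497), while in endothelial cells it was 32.1 (WT1), 36.5 (WT2), 309.9 (KO1) and 167 (KO2) CPM. *Ntf3*, the neurotrophin that signals through NTRK3, was 57.2 (WT1), 67.6 (WT2), 35.7 (KO1) and 28.2 (KO2) CPM (log2 difference -1.12 ± 0.31 (SE), adjusted p = 0.0386) and fell with all cells too (log2 difference -1.47 ± 0.25 (SE), adjusted p = 0.0279). *Carmn*, a non-coding RNA of smooth muscle, was 148 (WT1), 246 (WT2), 140.4 (KO1) and 54.1 (KO2) CPM (log2 difference -1.24 ± 0.24 (SE), adjusted p = 8.85e-05). Against pericytes it was lower in smooth muscle cells (log2 difference -0.56, adjusted p = 0.0212 by the edgeR test between the classes). *Cog7* and *Chchd10* fell by less than 1 on the log2 scale. *Ntf3*, *Cog7* and *Chchd10* lost their calls with any 1 mouse left out, *Ccn2* in 3 and *Carmn* in 2 of these 4 fits. *Ttr*, transthyretin of the choroid plexus, was 711 (WT1), 567 (WT2), 51.3 (KO1) and 210.3 (KO2) CPM (log2 difference -2.32 ± 0.25 (SE), adjusted p = 2.01e-17), 1359 (WT1), 1455 (WT2), 83 (KO1) and 642 (KO2) CPM in pericytes and 665 (WT1), 2173 (WT2), 57.8 (KO1) and 1374 (KO2) CPM in endothelial cells. *Ttr* made up nearly all of the 6 choroid plexus markers in smooth muscle cells, with *Kcnj13* or *Otx2* at 0 in 3 of the 4 mice, and its part in other genes was not tested.

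Markers of microglia moved with the genotype as well. The 10 microglial and macrophage markers summed to 147, 50.4, 658 and 370 CPM, and 7 of 8 tested were higher, with *Mrc1* at 0 in WT1, WT2 and KO1. DESeq2 called 0 of the 8, edgeR 0 of 9 without WT2, and with all cells edgeR called 0 of 9, of which 5 had an unadjusted p under 0.05. The most abundant in KO1 was *Cx3cr1*. *Cx3cr1* was 15.1 (WT1), 3.69 (WT2), 169 (KO1) and 45.8 (KO2) CPM (log2 difference 3.1 ± 0.35 (SE), adjusted p = 1.46e-15), and 1 cell held 98.7% of its UMIs in KO1. Without the 4 cells that held 10 or more UMIs of these markers (1 in WT1, 1 in KO1, 2 in KO2), the 1 microglial marker still tested did not pass and 67 genes were called, 63 of them as before. The matrix calls were then 16, against 15. The 12 fibroblast markers summed to 529, 630 and, in KO mice, 996 and 1243 CPM, with *Lum* at 0 in all 4 mice and *Col1a2* or *Col3a1* the most abundant. Their part in the matrix result was not tested. *Fabp5* was 4.21 (WT1), 12.3 (WT2), 17.8 (KO1) and 189 (KO2) CPM, with 87% of the KO2 UMIs in 1 cell.

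The effect of the genotype was set beside that in pericytes of the same libraries. Without endothelial-marker cells, 19 of 4146 genes were called in pericytes (0.458%), 6 higher (0.145%) and 13 lower (0.314%), and with all cells 47 of 10942 (0.43%), 37 higher (0.338%) and 10 lower (0.0914%). The 2 effects differed for 66 of 6962 genes (0.948%), 58 of them (0.833%) with the larger value in smooth muscle cells and 8 (0.115%) with the smaller. With all cells they differed for 199 of 11436 genes (1.74%), 112 (0.979%) and 87 (0.761%), or 145 and 45 without TMM scaling. These fits had the mouse as a term. The replicate block took replicate number and genotype in place of that term, and so dropped the pairing of the 2 classes within a mouse. With it the counts were 2 with all cells and 28 without endothelial-marker cells. Of the contractile list outside the gate, 9 of 26 had the smaller value in smooth muscle cells with all cells and 0 the larger (median -0.74). *Csrp1* gave -0.57 in smooth muscle cells and 0.77 in pericytes (difference -1.38 ± 0.18, adjusted p = 0.00141), and neither value passed in its own class. The 9 calls were lost at a minimum of 50 UMIs, without WT1, without WT2 and with the replicate block, with medians from -0.40 to -0.76, and without endothelial-marker cells 1 of 25 was smaller and 1 larger (median -0.11). The matrix lists were read in pericytes without endothelial markers as well, where the basement membrane list had a median log2 difference of 0.70 with 15 of 16 above 0, none of which passed, and 1 of 26 interstitial matrix genes rose and 1 fell (median 0.19). *Fn1* rose in pericytes (log2 difference 3.02 ± 0.47 (SE), adjusted p = 0.0139), while *Col4a1* (1.26 ± 0.37), *Col4a2* (0.94 ± 0.32), *Nid1* (0.69 ± 0.22) and *Loxl2* (1.61 ± 0.43) did not pass, and for none of these 5 did the difference of effects pass. That difference was called larger in smooth muscle cells for 8 of 33 interstitial matrix and 2 of 20 basement membrane genes, and smaller for 1 and 0. *Lama2* was 455 (WT1), 362 (WT2), 559 (KO1) and 381 (KO2) CPM in pericytes, above every smooth muscle value, and gave a log2 difference between *Angpt2*-KO and *Angpt2*-WT of 0.18 ± 0.25 there. Its effect was larger in smooth muscle cells (difference of effects 2.15 ± 0.38, adjusted p = 1.12e-05). *Col3a1* differed in the same direction (1.7 ± 0.31, adjusted p = 3.78e-05), a call lost with the replicate block. For *Eln* and *Timp3*, an inhibitor of metalloproteinases, the difference came with lower values in KO pericytes. *Timp3* was 1368 (WT1), 1198 (WT2), 1277 (KO1) and 1583 (KO2) CPM in smooth muscle cells and 1758 (WT1), 1356 (WT2), 551 (KO1) and 444 (KO2) CPM in pericytes. *Angpt1* was 164 (WT1), 79.5 (WT2), 19.4 (KO1) and 41.8 (KO2) CPM in pericytes (log2 difference -2.12 ± 0.50 (SE), adjusted p = 0.0988), against an effect of 0.21 in smooth muscle cells.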

How the data were processed

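Per the labels and the study's methods, the authors made 10x 3′ libraries from 4 mice and counted UMIs per gene with Cell Ranger (6.1.2 in the submitters' processing notes, 6.1.1 in the file headers) on mm10. The deposited values were raw counts for 32286 genes in 19809 barcodes. Whether counting used strand was not given in the sources used here. No column belonged to another series.

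Cells were kept and classed by the rules in the text, and counts were summed per mouse and class. Genes passing edgeR's filterByExpr were tested with edgeR 4.0.16 (TMM factors, quasi-likelihood F test, Benjamini-Hochberg), R 4.3.3. The SE given with a log2 difference is its size divided by the square root of the F statistic, and so rests on the same spread as the p-value. The fits between classes and of the difference of effects had the mouse as a term, and the fit between genotypes had none. DESeq2 1.42.0 was an alternative, with other UMI minimums, filters, no TMM factors, thinning, each mouse left out, and cells left out by pericyte, endothelial or microglial genes. Some of these were chosen after seeing the data, as were all alternatives to the fits without endothelial-marker cells. Shares were compared by exact permutation tests over mice. Doublets were not called.

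Named genes were those that chose the cells, listed markers, the 10 largest called rises and falls with a mean of at least 20 CPM, up to 6 called and the 4 most abundant genes of each list, and 10 genes the study discusses. Between genotypes these rises and falls were taken only from genes whose mice did not overlap. Against pericytes they came only from genes that went the same way in all 4 mice. For genes named in this way, that order is no result. Genes outside this rule that the text names were chosen after their values were seen. The members and the lists were chosen with earlier results of these data known. Methods were tested on simulated data. Some genes that meet this rule are not reported here.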

Additional observations from a re-analysis of the deposited data

Results flagged for a closer look

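For 12 listed genes the effect of the genotype differed between smooth muscle cells and pericytes without endothelial markers (edgeR's quasi-likelihood test of the interaction, Benjamini-Hochberg). With the replicate block in place of the mouse term, which drops the pairing of the classes within a mouse, *Col3a1*, *Dcn*, *Lamb1*, *Mgp*, *Sparc*, *Sparcl1* and *Timp2* lost this call. Both classes came from the same 4 libraries. Values are log2 differences between *Angpt2*-KO and *Angpt2*-WT mice.

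The first set was called between the genotypes in smooth muscle cells. *Lama2*, laminin alpha-2, gave 2.27 in smooth muscle cells and 0.18 in pericytes, a difference of 2.15. *Col3a1*, a fibrillar collagen chain, gave 1.45 in smooth muscle cells and -0.22 in pericytes, a difference of 1.70. *Col1a1*, a fibrillar collagen chain, gave 2.47 in smooth muscle cells and was not tested in pericytes alone, and the difference between the classes was 5.95. Over its alternatives that difference ranged from 3.16 to 10.3, and without KO2 the effect in smooth muscle cells was -0.46. *Lamb1*, laminin beta-1, gave 2.77 in smooth muscle cells and 1.01 in pericytes, a difference of 1.87. *Sparc*, a collagen-binding protein, gave 0.86 in smooth muscle cells and -0.07 in pericytes, a difference of 0.94. In smooth muscle cells with under 3 pericyte genes, 0 of 39 matrix and basement membrane genes passed and *Lama2* overlapped between the genotypes. That split is not independent of these genes.

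A second set had its larger effect in pericytes, of which *Timp3* passed there (adjusted p = 0.00688). *Timp3*, an inhibitor of metalloproteinases, gave 0.03 in smooth muscle cells and -1.69 in pericytes, a difference of 1.68. *Eln*, elastin, gave 0.17 in smooth muscle cells and -3.79 in pericytes, a difference of 4.05. *Angpt1*, the TEK ligand of mural cells, gave 0.21 in smooth muscle cells and -2.12 in pericytes, a difference of 2.23. *Timp2*, an inhibitor of metalloproteinases, gave -0.15 in smooth muscle cells and -1.73 in pericytes, a difference of 1.54.

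The remaining genes passed in neither class alone. *Dcn*, decorin, gave 1.39 in smooth muscle cells and -0.93 in pericytes, a difference of 2.62. *Mgp*, matrix Gla protein, gave 0.64 in smooth muscle cells and -0.50 in pericytes, a difference of 1.14. *Sparcl1*, a secreted matrix protein, gave -0.42 in smooth muscle cells and 0.54 in pericytes, a difference of -1.0.

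Calls for several of these differences depended on the mice kept, while over the alternatives none changed direction. The log2 difference ranged from 1.65 to 3.36 for *Lamb1*, 1.71 to 2.63 for *Angpt1* and 0.73 to 1.14 for *Sparc*. It ranged more widely for *Col3a1* (0.64 to 3.24) and *Dcn* (1.30 to 4.18). With 1 mouse left out in turn, *Timp3* kept its call in 4 of 4 fits, *Lama2*, *Eln* and *Mgp* in 3, *Col3a1*, *Col1a1*, *Angpt1*, *Dcn* and *Sparcl1* in 2, *Sparc* and *Timp2* in 1 and *Lamb1* in 0. Over 11 alternatives *Lamb1* and *Sparc* were called in 4, *Timp2* in 5 and *Timp3* in 11. DESeq2 called 5 genes in all for the difference of effects.

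With all cells, endothelial-marker cells included, *Angpt2* and 8 named contractile genes differed between the classes, none of which passed in either class alone. *Angpt2* gave -1.37 in smooth muscle cells and 0.78 in pericytes, a difference of -1.99. The differences were -1.54 for *Dstn*, -1.38 for *Csrp1*, -1.13 for *Synm*, -1.04 for *Csrp2*, -0.86 for *Tpm1*, -0.82 for *Actn1*, -0.80 for *Des* and -0.77 for *Myl6*. Without endothelial-marker cells *Actn1* was called among these. With all cells, 0 of 26 contractile genes were called at a minimum of 50 UMIs (median -0.40) or with the replicate block (median -0.74). That block, used in place of the mouse term, left 2 genes called in all, against 199 with the mouse term.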

How the results depend on the processing

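The number of genes called between the genotypes depended on the setting and on single mice. In all smooth muscle cells (56) it was 23 at a minimum of 50 UMIs, 90 with DESeq2, 146 without TMM factors, 459 without a filter, 123 with at least 20 UMIs per library, 2 when thinned to 2000 UMIs, 0 by edgeR without cells with 5 or more pericyte genes (598 at an unadjusted p under 0.05), and 3 to 212 with 1 mouse left out. Without endothelial-marker cells (79) it was 50 at 10 UMIs, 47 at 50 UMIs, 10 with DESeq2, 1 when thinned, 15 without cells with 3 or more pericyte genes, and 12 to 98 with 1 mouse left out, lowest without WT2. Between smooth muscle cells and pericytes (2718) it was 1576 when thinned and 1757 to 2500 with 1 mouse left out, and without endothelial-marker cells (1956) 913 when thinned. For the difference of effects (199) it was 66 without endothelial-marker cells, 12 at 50 UMIs, 80 with DESeq2, 477 without a filter and 4 to 574 with 1 mouse left out; without endothelial-marker cells (66) it was 5 with DESeq2 and 17 to 62. In pericytes (47) it was 19 without endothelial-marker cells, 215 with DESeq2, 832 without a filter, 126 with at least 20 UMIs per library and 0 to 982 with 1 mouse left out; without endothelial-marker cells (19) it was 11 with DESeq2, 34 without TMM factors, 108 without a filter, 50 with at least 20 UMIs per library and 27 to 110. The cause was not tested.

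The difference in the share of smooth muscle cells ranged from -1.99 to 0.25 percentage points with 1 mouse left out and was 0.246 without KO1. The difference in the share with 3 or more pericyte genes was 20.9 points unthinned and 12.3 at 4000 UMIs. Without cells with 3 or more pericyte genes, *Fn1* (-0.15), *Nid1* (-0.016), *Rgs5* (-0.64) and *Tpm4* (-0.10) changed sign. *Col1a1* changed sign without KO2 (-0.46) and was 3.16 without KO1. *Angpt2* kept its call in 13 of 14 alternatives and lost it when thinned.

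Same-numbered mice share a sex and a number. The study speaks of independent experiments, and the sources used here do not say which mice belonged to which. The deviations of same-numbered mice from the genotype means correlated at -0.168 (Pearson, across genes). With the replicate block the counts were 83 and, without endothelial-marker cells, 79 in smooth muscle cells, 2 and 28 for the difference of effects, and 674 and 45 in pericytes. For the difference of effects the block took the place of the mouse term, so the classes were no longer paired within a mouse. Without endothelial-marker cells, *Rgs5* (adjusted p = 0.122) and *Chchd10* (0.101) lost their calls in smooth muscle cells under the block, and *Col3a1*, *Dcn*, *Lamb1*, *Mgp*, *Sparc*, *Sparcl1* and *Timp2* theirs for the difference of effects. Leaving the mouse term out between the classes gave 1731. With the numbers crossed, an alternative chosen after seeing the data, 728 genes were called in smooth muscle cells. With 2 mice a genotype, and 40 cells without endothelial markers in KO1, genes of few UMIs could not be resolved.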
